A study of Mus musculus with 8 samples.

Results

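Interferon response genes are the ligand, receptor, transcription factor, sensor and effector genes that act in, or are switched on by, the cell's response to interferon. A list of 47 such genes was chosen by name, with earlier results of these data known. The shares called below therefore describe this list and are no independent test of it. Each gene was read from the brightest array probe set annotated to it alone. Of these, 45 were measured among 18193 genes. Isg15 and Ifi44 were not analysed here, because no probe set was annotated to either gene alone.

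The RNA came from mouse embryonic fibroblasts of the C57BL/6 strain at passage 13 and was read on 8 Affymetrix mouse expression arrays. There were 4 groups of 2 arrays, in which control and Stat5a/b-null cells were each kept with or without growth hormone (GH). All cells had been starved 5 hours beforehand, and GH at 1 ug/ml or no stimulus followed for 2 hours. The null cells lack both transcription factors, STAT5A and STAT5B, that the GH receptor activates. The sources used here do not say which part of either gene was deleted, from how many embryos or clones the lines came, or whether the 2 biological replicates (numbered 2 and 3) were separate cultures. The p-values therefore measure the spread between these arrays.

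Interferons are secreted proteins that warn cells of infection. Type I interferons such as IFN-beta bind the IFNAR receptor and lead to phosphorylated STAT proteins that join IRF9 on the interferon-stimulated response element (ISRE). Interferon-gamma binds IFNGR, and the STAT dimer it activates binds a shorter palindrome, the gamma-activated site (GAS). Interferon regulatory factors (IRFs) also bind the ISRE, so part of the programme can be run by an IRF that another stimulus has raised. Fibroblasts make and answer IFN-beta when their sensors meet viral RNA.

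The promoters of these genes were searched for the letters of both elements. Sequence from 250 bases before to 50 bases after the RefSeq start site (GRCm38.p6) was held for 37 of the 47 genes. On both strands, the ISRE letters (GAAA, any 2 bases, GAAA) lay in 15 of these 37 (40.5%), against 3.99% of all 27025 genes with such a promoter and 3.44% of all 32851 promoters of this length. The GAS letters TTCNNNGAA lay in 12 (32.4%), against 9.55% of genes and 8.3% of promoters. The letters of one motif can overlap those of the other, as they do in Bst2. The stretches below belong to the genes on which the results turn: the strong GH responders, and genes that carry an ISRE and did not respond. Capitals mark matches to either motif, and the ISRE read on the other strand has TTTC on either side. Positions count from the first transcribed base as 1. A match is a description of the letters only.

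Irf1 (chr11:53769909-53769947, plus strand, 1 GAS match from -90 to -82): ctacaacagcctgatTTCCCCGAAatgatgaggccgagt
Irf2 (chr8:46739495-46739544, plus strand, ISRE from -241 and GAS from -224): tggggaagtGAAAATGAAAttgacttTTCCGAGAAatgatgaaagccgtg
Gbp2 (chr3:142620589-142620628, plus strand, ISRE from -59 to -50): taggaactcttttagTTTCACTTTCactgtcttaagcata
Gbp3 (chr3:142559984-142560029, plus strand, overlapping ISRE matches from -45 to -30): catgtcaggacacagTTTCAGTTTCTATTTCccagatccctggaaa
Irgm1 (chr11:48871421-48871465, minus strand, overlapping ISRE matches from -30 to -15): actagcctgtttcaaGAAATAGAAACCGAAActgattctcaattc
Ifit1 (chr19:34640770-34640828, plus strand, ISRE matches from -104 and from -85): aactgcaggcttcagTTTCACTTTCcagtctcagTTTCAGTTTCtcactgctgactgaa
Ifit3 (chr19:34583358-34583431, plus strand, ISRE matches from -156 and from -122): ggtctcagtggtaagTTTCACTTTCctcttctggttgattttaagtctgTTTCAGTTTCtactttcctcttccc
Rsad2 (chr12:26456548-26456587, minus strand, ISRE from -120 to -111): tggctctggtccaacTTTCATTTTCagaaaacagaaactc
Oas1a (chr5:120907526-120907638, minus strand, GAS from -98 and overlapping ISRE matches from -20 to -5): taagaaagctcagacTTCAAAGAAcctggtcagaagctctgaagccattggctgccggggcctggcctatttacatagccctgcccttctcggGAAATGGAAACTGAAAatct
Igtp (chr11:58199496-58199546, plus strand, GAS from -45 and ISRE from -34): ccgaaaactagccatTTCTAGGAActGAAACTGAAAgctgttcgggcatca

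Values are log2 intensities, and each pair of values below is replicate 2 and replicate 3. Array medians lay between 6.89 and 6.96, and replicate arrays correlated at 0.9968 to 0.998 over all probe sets. All 4 probe sets of Stat5a and Stat5b were called lower in null cells with and without GH. On null arrays 3 of them were dim, and the other, of Stat5b, differed by -0.69 without GH and still read 6.93 to 7.33. Which exons were deleted is not known here, so that signal does not check the label. The first quartile of all gene values, 6.097, served as a dimness limit, since the deposited values carry no detection call. In the text, a fold or a log2 difference is given only where both groups compared lay at or above it. Of the 45 genes, 39 were at or above it in all groups, 4 (Ifnb1, Irf8, Dhx58 and Oasl2) in some groups, and Cmpk2 and Mx1 in none. A gene was called at a limma adjusted p (Benjamini-Hochberg over all 18193 genes) below 0.05. A value after ± is the standard error (SE) from limma of the log2 difference before it, and every group had 2 arrays.

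Cell type markers were set beside the groups. Fibroblast markers, 11 of 12 measured, had a summed linear level of 169000 to 177500 on control arrays and 188500 to 201200 on null arrays, with none below the first quartile. In each GH state 4 of the 11 were higher and 1 was lower in null cells, or 45.5% called. Of all genes, 47.5% were called without GH and 45.3% with GH. Without GH the matrix genes Lum (7.76 to 12.08) and Dcn (10.96 to 14.53) and the receptor gene Pdgfra (9.16 to 12.96) differed most. Fn1 was lower (14.69 to 13.72). Macrophage and leukocyte markers were present in the control cultures: all 18 were lower in null cells with and without GH, with a summed linear level of 41520 to 45800 on control arrays against 2273 to 2446 on null arrays. In null cells 7 of the 18 lay below the first quartile without GH and 10 with GH. GH raised 1 of the 11 fibroblast markers in control cells (Pdgfra, by 0.69 ± 0.11) and none in null cells, and it raised 1 of the 18 (the myeloid factor gene Spi1) in control cells and lowered the same 1 in null cells. Of the other lists, the test called 2 of 6 endothelial, 2 of 7 lymphoid and dendritic, and 2 of 5 epithelial markers between the genotypes without GH. These shares (33.3%, 28.6% and 40%) lay below the 47.5% of all genes called. In null cells the 2 endothelial markers were lower, the 2 lymphoid and dendritic ones were higher, and the epithelial ones went both ways.

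**Figure D1:**
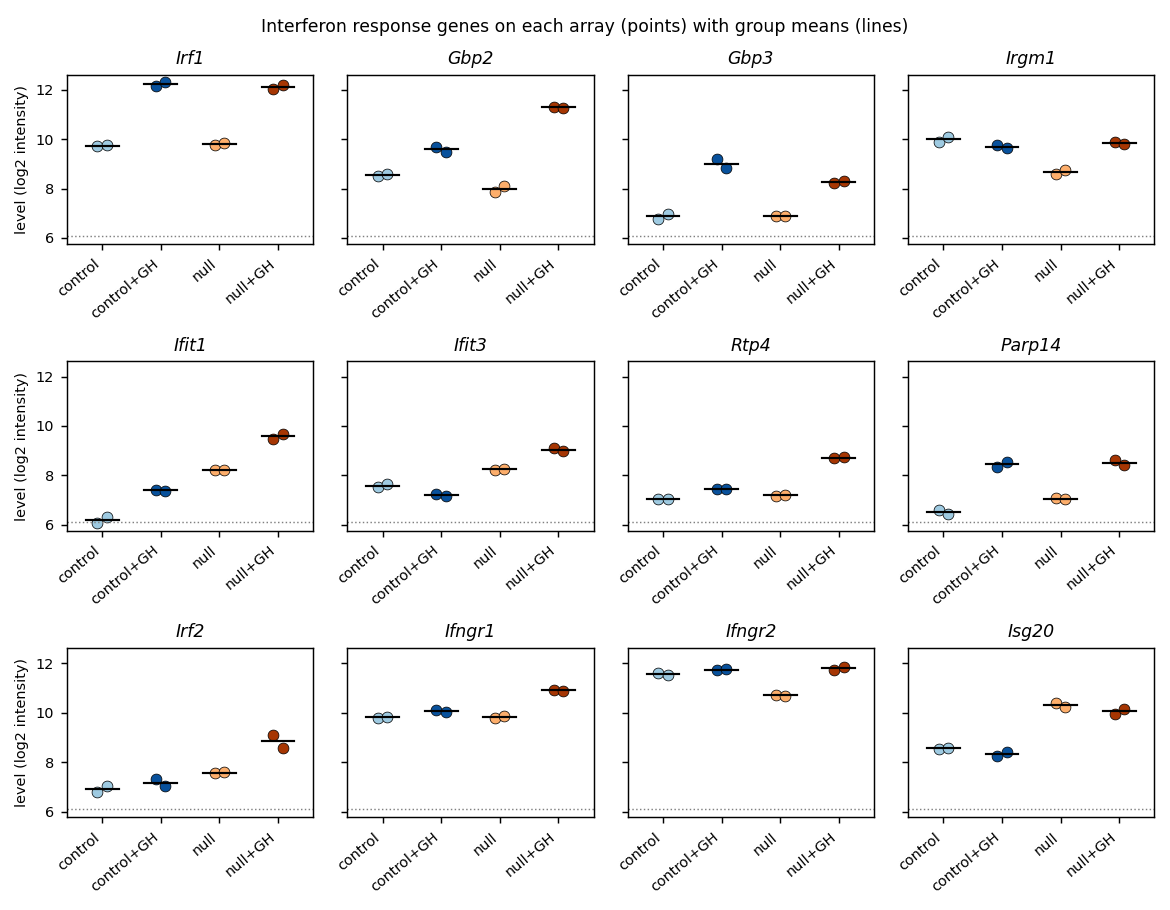
Log2 intensity of selected interferon response genes (panels) on each of the 8 arrays, grouped on the horizontal axis by genotype and GH, with points for arrays, solid lines for group means and a dotted line at the dimness limit. With GH, Irf1 stood at 12.16 to 12.30 in control and 12.03 to 12.20 in null cells, whereas Gbp2 stood at 9.50 to 9.68 in control and 11.24 to 11.31 in null cells.

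The first question was whether GH moved interferon response genes in control cells. It did so for a minority: 12 of 45 rose and 2 fell, against 1.72% and 0.896% of all genes, which is 31.1% called against 2.62%. The median difference was 0.13 over these genes and -0.02 over all genes. The genes that rose most were Irf1, Gbp3, Parp14, Ifit1, Gbp2 and Rsad2.

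Irf1, a transcription factor that responds early to interferon-gamma and to inflammatory signals, was the strongest. It stood at 9.71 and 9.74 without GH and at 12.16 and 12.30 with GH, a 5.69-fold rise (log2 difference 2.51 ± 0.10, limma adjusted p = 8.53e-09). The groups were far apart and each pair of arrays was close.

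Guanylate-binding proteins are interferon-induced GTPases that attack the vacuoles of intracellular microbes. Gbp3 went from 6.76 and 6.98 to 9.18 and 8.84 (2.14 ± 0.12, 4.41-fold). Gbp2 went from 8.49 and 8.58 to 9.68 and 9.50 (1.06 ± 0.11, 2.08-fold). Both ranges were separate.

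The PARP group adds ADP-ribose to proteins, and its members PARP9 and the ubiquitin ligase DTX3L act as a pair. Parp14 rose 3.83-fold, from 6.60 and 6.43 to 8.36 and 8.55 (1.94 ± 0.11, limma adjusted p = 2.56e-07). Parp9 (0.55 ± 0.11) and Dtx3l (0.51 ± 0.11) rose less, and Parp12 was not called. Parp14 alone of the 4 thus changed by more than 1 log2 unit.

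Of the 16 antiviral effectors, 3 rose and 1 fell, or 25% called against 2.62% of all genes, and the other 12 were not called. Ifit1, whose protein binds viral RNA that lacks the host cap methylation, went from 6.08 and 6.32 to 7.42 and 7.38 (1.21 ± 0.10, 2.31-fold). The array at 6.08 lay just under the dimness limit, so the fold of Ifit1 may understate its change. Rsad2, which encodes viperin, a maker of a chain-terminating nucleotide, went from 7.61 and 7.30 to 8.38 and 8.18 (0.83 ± 0.12, 1.78-fold). Rtp4, a Golgi chaperone gene that limits interferon signalling, rose by 0.39 ± 0.08. Ifit3, whose protein stabilises IFIT1, fell by 0.39 on the log2 scale, from 7.53 and 7.65 to 7.24 and 7.16. The fall of Ifit3 was marginal (limma adjusted p = 0.0419) and lost its call in all 8 fits that left out 1 array, so a difference in direction from Ifit1 in control cells rests on the full set of arrays.

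Among the other IRFs, Irf5 rose (0.52 ± 0.11) and Irf8 fell from 7.19 and 7.35 to 6.58 and 6.45 (limma adjusted p = 0.00445, a 1.69-fold change). Irf5 and Irf8 are also expressed by macrophages, whose summed marker level was 41840 to 45800 without and 41520 to 44030 with GH in control cells. The RNA sensor gene Ifih1, which encodes MDA5 (0.44 ± 0.09), and Trim21, a ubiquitin ligase that binds antibody inside cells (0.41 ± 0.10), rose as well. A dimmer Trim21 probe set gave 0.32 and was not called.

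Neither the ligand nor any receptor gene was called in control cells by its brightest probe set, although dimmer probe sets of Ifnar1 (0.61) and Ifnar2 (0.61 and 0.82) were. Ifnb1 read 5.91 and 5.86 without GH and 6.34 and 6.11 with GH, near or below the dimness limit throughout. None of Irf2, Irf7 and Irf9 was called, and neither were Usp18, Mx1, Mx2 and the 4 Oas genes. Mx1 was dim in all groups, and a part of type I interferon in these values was not tested. The count fell from 14 to 8 without replicate 3 of the control cells without GH, and likewise without replicate 2 or replicate 3 of those with GH. Calls that stood whichever array was left out were those of Irf1, Gbp2, Gbp3, Ifit1, Irf8, Parp14 and Rsad2. The calls of Dtx3l, Ifih1, Ifit3, Irf5, Parp9, Rtp4 and Trim21 were lost at least once.

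GH moved more of these genes in cells that lack STAT5: 19 of 45 rose (background 5.36%) and none fell (background 6.35%), or 42.2% called against 11.7% of all genes. At an unadjusted limma p below 0.05, 21 were higher and 3 lower, and limma-trend also called 0 lower. The median difference was 0.21, and -0.07 over all genes. Of the 5 GTPases 4 rose, as did both chains of the interferon-gamma receptor and 3 of the 6 IRFs. The count of genes called does not compare the genotypes, which is done by the interaction below.

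Gbp2 was the strongest responder in null cells. It went from 7.85 and 8.09 to 11.31 and 11.24, a 9.91-fold rise (3.31 ± 0.11, limma adjusted p = 1.85e-09). The probe set used carries a mark for probes that may match related transcripts, and Gbp2's other probe set gave 3.03. Gbp3 went from 6.87 and 6.91 to 8.22 and 8.28 (1.36 ± 0.12, 2.57-fold). The immunity-related GTPase gene Irgm1, a regulator of the GTPases that coat vacuoles, went from 8.59 and 8.74 to 9.89 and 9.78 (1.17 ± 0.10, 2.25-fold). Irgm1 with GH thus came near the values of control cells, which were 9.89 and 10.09 without GH. Iigp1, a GTPase that acts on the vacuole of Toxoplasma, went from 6.75 and 6.79 to 7.40 and 7.68 (0.77 ± 0.12). The fifth GTPase gene, Igtp, was not called (9.41 and 9.36 against 9.70 and 9.57).

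Both chains of the interferon-gamma receptor rose, while the brightest probe sets of both type I receptor chains were not called. Ifngr1, the ligand-binding chain, went from 9.79 and 9.89 to 10.93 and 10.89 (1.07 ± 0.09, 2.10-fold). Ifngr2, the signalling chain, went from 10.71 and 10.70 to 11.71 and 11.87 (1.09 ± 0.09, 2.13-fold). A dimmer Ifngr2 probe set gave 0.47. Neither pair of groups overlapped.

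Irf1 rose to the level of the control cells, from 9.76 and 9.86 to 12.03 and 12.20 (2.30 ± 0.10, 4.94-fold). Irf2, which opposes IRF1 at many shared sites, went from 7.54 and 7.62 to 9.10 and 8.59 (1.26 ± 0.15, 2.40-fold), with the replicates under GH less close than for the other IRFs. Irf5 rose by 0.84 ± 0.11, although its dimmer probe set was not called in either genotype.

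Of the 16 antiviral effectors 5 rose and none fell, or 31.2% called against 11.7% of all genes. Rtp4 went from 7.17 and 7.22 to 8.71 and 8.73 (1.52 ± 0.08, 2.87-fold). Ifit1 went from 8.22 and 8.20 to 9.48 and 9.68 (1.37 ± 0.10, 2.58-fold). Ifit3 went from 8.22 and 8.28 to 9.09 and 8.99 (0.80 ± 0.09). Mouse Ifit3 has a near-identical neighbour, Ifit3b, so the signal may be of both. The other 2 were Samd9l, a growth-restraining antiviral gene (0.36 ± 0.10), and Oasl2, a relative of the enzymes that make 2-5A, which read 5.78 and 5.88 without and 6.41 and 6.44 with GH.

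Parp14 rose by 1.45 ± 0.11 (2.72-fold), Dtx3l by 0.85 ± 0.11 and Parp12 by 0.36 ± 0.09. Parp9, at 9.45 and 9.63 before and 9.73 and 9.73 after GH, was not called. Trim21 rose by 1.06 ± 0.10 (2.08-fold), and its other probe set gave 1.03. Ddx58, the gene of the RNA sensor RIG-I, rose by 0.50 ± 0.09 in its brightest probe set, which was not called in control cells. A dimmer Ddx58 probe set was called in control cells too (0.67), and another was not called in null cells (0.29). Of the 19 calls, 15 stood whichever array was left out, and those of Ddx58, Oasl2, Parp12 and Samd9l were lost at least once.

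**Figure D2:**
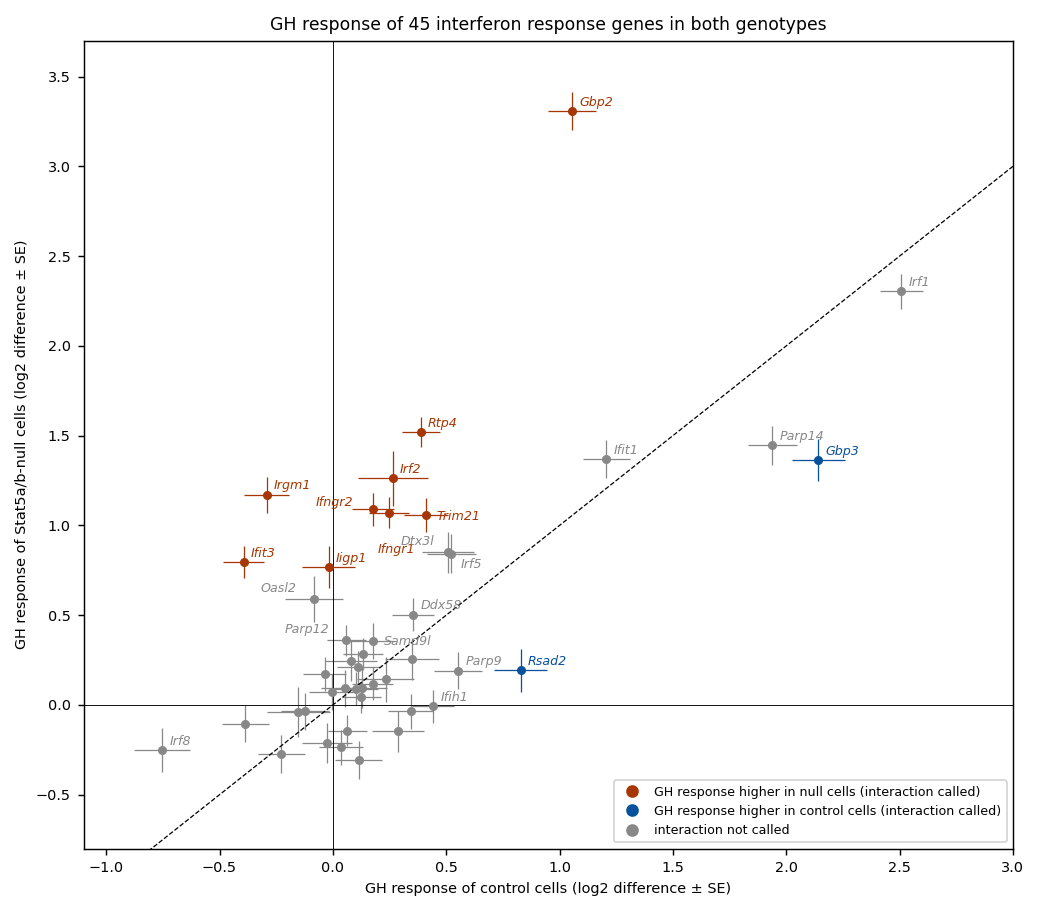
GH response (log2 difference, GH minus no GH, with SE) of 45 interferon response genes in control cells (horizontal axis) and Stat5a/b-null cells (vertical axis), coloured by the test of the difference between the responses; the dashed line marks equal responses. Gbp2 lies farthest above the line (1.06 against 3.31), and Gbp3 and Rsad2 below it are the genes with a called higher response in control cells.

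The interaction asks directly whether a gene's GH response differed between the genotypes. It was called for 11 of 45 genes, 9 with a higher response in null cells and 2 with a lower one (background 2.83% and 2.33%, and 5.16% in either direction). Irf1, Ifit1, Parp14, Dtx3l and Irf5 rose in both genotypes with no difference called.

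The difference was largest for Gbp2, at 2.25 ± 0.15 (limma adjusted p = 4.10e-06), and its other probe set gave 1.94. Without GH, Gbp2 was lower in null than in control cells, and with GH it was higher, so the order of the genotypes turned over. Gbp3 went the other way (-0.78 ± 0.17, limma adjusted p = 0.0190): the genotypes overlapped without GH, and control cells were higher with it. The neighbouring genes Gbp2 and Gbp3, both on chromosome 3 with ISRE letters close to the start, thus differed in which genotype responded more.

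Irgm1 (1.46 ± 0.14) and Ifit3 (1.19 ± 0.13) had estimated responses above 0 in null and below 0 in control cells. Irgm1 went from 9.89 and 10.09 to 9.74 and 9.66 in control cells, which was not called, and rose in null cells. Ifit3 was lower with GH in control cells, by the marginal call above, and rose in null cells. Rtp4 (1.13 ± 0.12) and Trim21 (0.65 ± 0.14) rose in both genotypes and more in null cells. The other Trim21 probe set was not called in control cells (0.32), and its interaction of 0.71 was not called.

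The receptor chains Ifngr2 (0.91 ± 0.13) and Ifngr1 (0.82 ± 0.12), as well as Irf2 (1.00 ± 0.22) and Iigp1 (0.79 ± 0.17), were called in null but not in control cells, and their interaction was called. A dimmer probe set of Ifngr2 gave an interaction of 0.33 that was not called. Rsad2 (-0.64 ± 0.17, limma adjusted p = 0.0492) was called in control and not in null cells, where the arrays read 7.55 and 7.39 without and 7.71 and 7.62 with GH. The interaction of Irf1 was -0.20 (95% interval -0.50 to 0.09) and that of Ifit1 was 0.16 (-0.16 to 0.49). These intervals leave room for a modest difference in either direction.

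Calls that stood whichever array was left out were those of Gbp2, Ifit3, Ifngr1, Ifngr2, Irgm1 and Rtp4, while Gbp3, Iigp1, Irf2, Rsad2 and Trim21 lost theirs at least once. The count fell to 6 without replicate 2 of the null cells without GH, and to 7 without either array of null cells with GH.

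The question of genotype without GH covered a large background, since 24.8% of all genes were higher and 22.7% lower in null cells. Of the 45 interferon response genes, 20 were higher and 10 lower, or 66.7% called against 47.5% of all genes. The median difference was 0.16, and 0.03 over all genes. Ifit1, Isg20, Igtp and Parp9 were higher in null cells, and Irgm1 and Ifngr2 were lower. The macrophage markers and the fibroblast markers Lum, Dcn, Pdgfra and Fn1 given above moved with this comparison, and their part in it was not tested. In bulk RNA, fewer cells of a type and less RNA per cell cannot be told apart. This comparison and each GH comparison share arrays, so their values are given side by side and not compared.

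Ifit1 differed most, at 6.08 and 6.32 in control and 8.22 and 8.20 in null cells (2.01 ± 0.10, 4.04-fold, limma adjusted p = 1.16e-08). Isg20, a gene for an exonuclease that degrades viral RNA, read 8.53 and 8.59 against 10.42 and 10.24 (1.77 ± 0.11, 3.42-fold). Ifit2 (0.72 ± 0.10) and Ifit3 (0.66 ± 0.09) were higher as well, so all 3 measured Ifit genes were. Samd9l was higher by 0.86 ± 0.10, and Oasl2 and Mx1 were called higher from dim levels. Eif2ak2 was higher by 0.26 ± 0.09 (0.25 ± 0.09 with GH), and its dimmer probe sets were not called.

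The GTPases split. Igtp, at 7.89 and 8.25 in control and 9.41 and 9.36 in null cells, was 2.49-fold higher (1.32 ± 0.11). Irgm1, at 9.89 and 10.09 against 8.59 and 8.74, was 2.51-fold lower (-1.33 ± 0.10). Gbp2 was lower (-0.56 ± 0.11), Iigp1 higher (0.50 ± 0.12), and Gbp3 was not called. The 4 genes of the PARP and DTX3L group were all higher: Parp9 by 1.06 ± 0.11, Dtx3l by 0.87 ± 0.11, Parp14 by 0.54 ± 0.11 and Parp12 by 0.47 ± 0.09.

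Of the receptor genes, Ifnar1 (0.46 ± 0.09) and Ifnar2 (0.65 ± 0.11) were higher and Ifngr2 lower (-0.87 ± 0.09). A dimmer Ifnar1 probe set gave -0.16 and a dimmer Ifnar2 probe set gave 0.25, neither called. Irf2 (0.67 ± 0.15) and Irf9 (0.52 ± 0.10), the DNA-binding partner of the type I pathway, were higher, and Irf5 (-0.81 ± 0.11) was lower. A dimmer Irf5 probe set gave 0.04 and was not called. Irf8 read 7.19 and 7.35 in control and 5.35 and 5.75 in null cells, where it was dim (limma adjusted p = 2.06e-07). The sensors went both ways, with Ifih1 and the dim Dhx58, which encodes LGP2, higher and Ddx58 lower (-0.51 ± 0.09). A dimmer Ddx58 probe set, at -0.12, was not called. Another read 6.33 and 6.23 in control and 6.08 and 5.92 in null cells, where it was dim, and was not called. Oas1a, an enzyme gene of the 2-5A pathway (-0.41 ± 0.09), Trim21, Ifi35 and Xaf1 were lower. Xaf1, an apoptosis gene, had -0.88 ± 0.12 in its brightest probe set, but the other one read 5.49 and 5.42 in control and 8.79 and 8.71 in null cells, so its direction is not settled by these data.

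**Figure D3:**
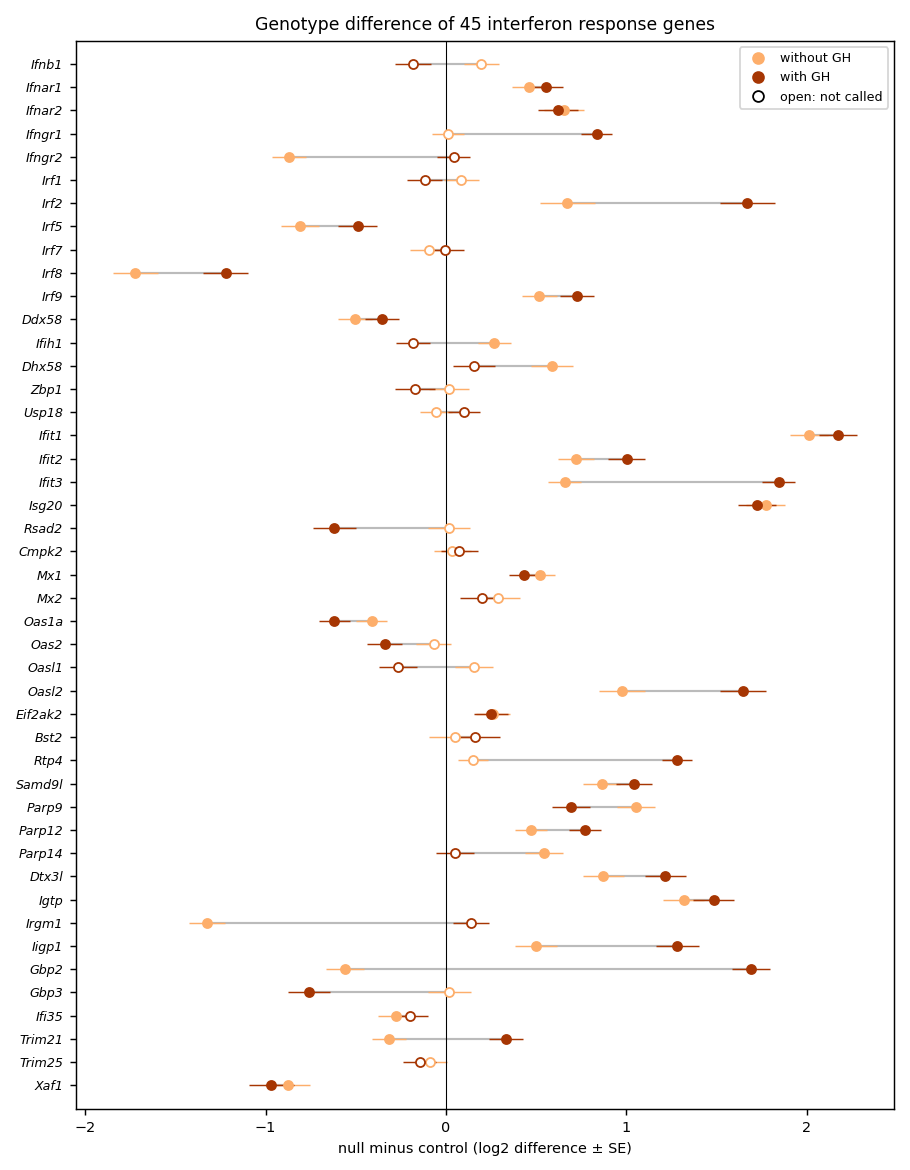
Genotype difference (log2, null minus control, with SE) of the interferon response genes without GH and with GH, 1 row per gene, with open points for differences that were not called. Ifit1 and Isg20 lie far to the right in both states, and Gbp2 crosses zero from -0.56 without GH to 1.69 with GH.

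Under GH, 21 of 45 were higher and 8 lower in null cells, against 22.2% and 23.1% of all genes, or 64.4% called against 45.3%. The median difference was 0.16, and -0.02 over all genes. The macrophage markers and the 5 fibroblast markers again moved with the comparison, and their part was not tested. The 2 genotype comparisons use different arrays: 17 genes (37.8%) were higher in null cells in both states, against 18.4% of all genes. Among them, Ifnar1, Ifnar2, Eif2ak2 and Iigp1 count by their brightest probe sets, and a dimmer probe set of each was not called without GH. The 5 (11.1%) lower in both, against 18.5%, were Irf5, Irf8, Ddx58, Oas1a and Xaf1. Irf5, Ddx58 and Xaf1 count there by their brightest probe sets. A dimmer Irf5 probe set gave 0.04 without and -0.16 with GH, neither called. A dimmer Ddx58 probe set gave -0.12 and -0.20, neither called.

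Ifit1 (2.18 ± 0.10, 4.52-fold) and Isg20 (1.72 ± 0.11, 3.31-fold) remained high in null cells. Ifit3 read 7.24 and 7.16 in control and 9.09 and 8.99 in null cells, a log2 difference of 1.85 ± 0.09. Gbp2 read 9.68 and 9.50 against 11.31 and 11.24 (1.69 ± 0.11, 3.23-fold). The groups were separate in each of these genes.

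Irf2 was 3.19-fold higher (1.67 ± 0.15), Igtp 2.80-fold (1.48 ± 0.11), Iigp1 2.44-fold, Rtp4 2.43-fold and Dtx3l 2.32-fold. Ifngr1 was higher by 0.84 ± 0.09, whereas Ifngr2, at 11.72 and 11.78 against 11.71 and 11.87, had reached overlapping values. Irgm1 was not called, at 9.74 and 9.66 against 9.89 and 9.78, although both null arrays lay above both control arrays. Gbp3 (-0.76 ± 0.12, 1.69-fold) and Rsad2 (-0.62 ± 0.12) were lower in null cells. Gbp2 and Trim21 were lower in null cells without GH and higher with it. The other Trim21 probe set gave 0.26 with GH and was not called there. In each genotype comparison the 20 called genes with the largest differences kept their call whichever array was left out, while the total called fell as low as 27.

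Of the 45 genes, 36 (80%) were called in at least 1 of the 5 comparisons, against 56.3% of all genes, and 23 (51.1%) in at least 1 GH comparison, against 13.1%. The 9 called in none were Ifnb1, Irf7, the nucleic acid sensor Zbp1, the ISG15 protease Usp18, Cmpk2, Mx2, Oasl1, the tethering factor Bst2 and the ubiquitin ligase Trim25. They include Irf7, which amplifies type I interferon and read 6.59 to 6.91 over all arrays, and Usp18, which restrains IFNAR and read 6.49 to 6.82.

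**Figure D4:**
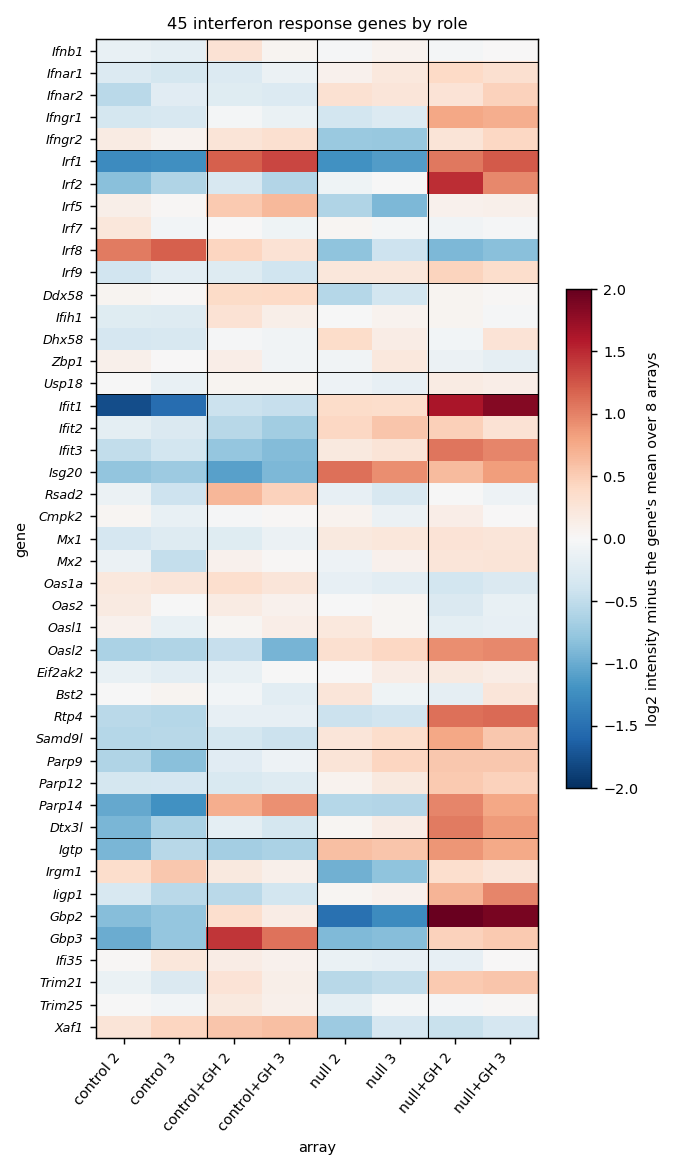
Log2 intensity of the 45 interferon response genes (rows, by role) on each array (columns), shown as the difference from the gene's mean over all arrays, red above and blue below it. Irf1, Gbp3 and Parp14 are high on all 4 arrays with GH, Ifit1 and Isg20 on all 4 null arrays, and Gbp2 mainly on the null arrays with GH.

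Promoter letters and GH response can be set side by side. Of all genes, GH raised 1.72% and lowered 0.896% in control cells, and raised 5.36% and lowered 6.35% in null cells. Of 14 measured genes with an ISRE match, GH raised 6 and lowered 1 in control cells (median 0.31) and raised 8 in null cells (median 0.65). Of 21 measured genes with a promoter and no ISRE match, it raised 3 and lowered 1 in control cells (median 0.11) and raised 8 in null cells (median 0.14). Irf1 and Irf2 were the 2 risers among 12 genes with a GAS match in null cells, and Irf1 alone in control cells (medians 0.08 and 0.07). Of 23 genes with a promoter and no GAS match, 14 rose in null cells and 8 in control cells (medians 0.50 and 0.23). In control cells Irf8, with a match, and Ifit3, without, were called lower. Igtp and Oas1a carry both motifs in the stretches printed above and were called in neither GH comparison. An ISRE was found in responders such as Gbp2 and in non-responders, so the letters alone did not sort the genes.

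Other genes of the pathway were counted in the same comparisons. Of 28 measured signalling and induction genes, GH raised 5 and lowered 1 in control cells, and raised 10 and lowered 2 in null cells (21.4% and 42.9% called, against 2.62% and 11.7% of all genes). Socs3, a feedback inhibitor of cytokine receptors, had the largest response in control cells, from 8.43 and 8.20 to 10.47 and 10.53 (2.19 ± 0.11), and was not called in null cells (-0.02 ± 0.11). Cd14, the endotoxin co-receptor, rose by 1.79 in control and 0.61 in null cells, and Socs1, a brake on interferon receptors, by 1.03 and 0.44. Jak2, a kinase of the interferon-gamma receptor (0.87), and Tbk1, the kinase that activates IRF3 (0.60), rose in null cells. The interaction was called for 4 with a higher response in null cells, Jak2 (0.75), Myd88 (0.60), Tlr4 (0.59) and Tbk1 (0.55), and for 2 lower, Socs3 (-2.21) and Cd14 (-1.18). That was 21.4% of the 28, against 5.16% of all genes. Of these 28, 7 were higher and 9 lower in null cells without GH (57.1% called against 47.5% of all genes), and 11 and 8 with GH (67.9% against 45.3%).

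Of 42 further interferon-stimulated genes, GH raised 6 and lowered none in control cells (11 and 1 at an unadjusted limma p below 0.05). In null cells it raised 9 and lowered 2. The shares called were 14.3% and 26.2%, against 2.62% and 11.7% of all genes. The chemokine gene Cxcl10 rose by 4.67 ± 0.21 in control and 2.92 ± 0.21 in null cells, and Ccl5 by 3.32 ± 0.09 and 2.15 ± 0.09. Cxcl10 read 5.83 and 6.41 on control arrays without GH, at the dimness limit, so the sizes of its rise and of its interaction are uncertain. Slfn2 (1.63) and Gbp7 (1.54) followed in control cells. In null cells Gbp6 followed, at 6.60 and 6.74 without GH and 8.20 and 8.14 with GH, and then Irgm2 (1.23). The interaction was called higher in null cells for Gbp6, Ifi47 and Irgm2 and lower for 5 genes, among them Cxcl10 (-1.75), Ccl5 (-1.17), Ifitm1 (-0.90) and Slfn2 (-0.75). That was 19% of the 42, against 5.16% of all genes. Without GH, 17 of the 42 were higher and 8 lower in null cells, and with GH 15 and 6, or 59.5% and 50% called, not far from the 47.5% and 45.3% of all genes. Ifi27l2a led in both (4.48 and 4.38).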

How the data were processed

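RNA was measured on 8 arrays. The deposited log2 intensities were made with Partek 6.10.0511 and RMA (robust multi-array average), per the submitters' processing notes, and the RMA settings were not given in the sources used here. RMA equalises the distributions of arrays, so a shift of all genes would not be seen. Probe sets annotated to 1 gene (34945) were kept, with the brightest of each gene over all arrays, which left 18193 genes. A mean per group was fitted in limma 3.58.1 (R 4.3.3) over all 8 arrays, with Benjamini-Hochberg adjustment within each comparison. The fit had 4 residual and 7.82 prior degrees of freedom, the number of arrays limits the precision, and the script was tested on simulated data. Members were described by role, and not every called member is named in each comparison. The 20 called genes of largest difference in a comparison were tried under each alternative. From a pathway list at most 4 are named in each direction. Smaller called differences named by role in the genotype comparisons were not tried singly. The members, lists and marker lists were chosen with earlier results of these data known. Replicate numbers share no stated source, and the deviations of same-numbered arrays correlated from -0.279 to 0.129, so the numbers were not taken as pairs. One null array without GH carries 2 in its title and 3 in its source name, and the title was used. Promoters came from the RefSeq table of GRCm38.p6. Alternatives left out each array, blocked on replicate, fitted only the groups compared, averaged or separated probe sets, dropped dim genes, changed the scaling, let the variance follow intensity, and required 1.5-fold.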

Additional observations from a re-analysis of the deposited data

Results flagged for a closer look

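The response to GH differed between the genotypes in 11 of the 45 genes, by limma's test of the difference itself (null response minus control response, log2). The values were 2.25 for Gbp2, 1.46 for Irgm1, 1.19 for Ifit3, 1.13 for Rtp4, 1.00 for Irf2, 0.91 for Ifngr2, 0.82 for Ifngr1, 0.79 for Iigp1, -0.78 for Gbp3, 0.65 for Trim21 and -0.64 for Rsad2. In these 11, the response to GH was higher in null cells for 9 and lower for 2, Gbp3 and Rsad2. The macrophage markers differed between the genotypes, and their part in these values was not tested. Groups of 2 arrays are too small to test a single array as an outlier.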

How the results depend on the processing

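Over 84 results of single genes, 1412 values were recomputed under an alternative: 1310 kept their direction and side of the threshold, 100 kept the direction only, and 2 reversed. The 2 were both Xaf1, which became 1.21 without GH and 1.35 with GH, null minus control, when its probe sets were averaged. Requiring 1.5-fold left 12 genes higher and 5 lower (17 in all) between the genotypes without GH. With GH it left 17 higher and 5 lower (22 in all). For the GH response it left 6 higher and 1 lower (7 in all) in control cells, and 16 higher in null cells. Each probe set was also tested alone, and a gene was counted where all its probe sets were called the same way. This gave 14 higher and 6 lower (20 in all) between the genotypes without GH, and 18 higher and 5 lower with GH. For the GH response it gave 7 higher and 1 lower (8 in all) in control cells, and 15 higher in null cells. There were 7 interactions, 1 of them lower. Fitting only the groups compared gave 7 higher and 1 lower (8 in all) for GH in control cells. With probe sets averaged, 1 gene was lower with GH in null cells. The cause of these changes was not tested. With the replicate block, counts were 28 and 28 called between the genotypes, 10 for GH in control cells (1 lower), 18 in null cells given GH, and 11 interactions. The crossed replicate block, chosen after seeing the data because numbers within genotypes correlated below zero, gave 20 for GH in null cells, 1 of them lower. Leaving out 1 array at a time gave 27 to 30 called between the genotypes in either GH state, 8 to 11 for GH in control cells (7 to 10 higher, 1 lower each time), 15 to 20 in null cells given GH, and 6 to 11 interactions (6 to 9 higher, 0 to 2 lower). With 2 arrays per group, differences of dim genes have the least support.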

Other observations

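Probe sets of one gene did not always agree. For Ifnar2, a chain of the type I interferon receptor, the brightest probe set was not called with GH in either genotype (0.13 in control and 0.09 in null cells). Its 2 dimmer probe sets rose in both, by 0.61 and 0.82 in control and by 1.55 and 1.91 in null cells, with interactions of 0.94 and 1.09 that were called when each probe set was tested alone. The dimmer set at 8.58 and 8.49 on control arrays without GH read 10.38 and 10.52 on null arrays with GH. For Ifnar1, the dimmer probe set rose by 0.61 in control and 0.91 in null cells, while the brightest was not called.

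For Xaf1 the brightest probe set read 7.87 and 8.04 in control and 6.88 and 7.28 in null cells without GH. The other read 5.49 and 5.42 in control and 8.79 and 8.71 in null cells, a difference of the opposite sign. For Trim25, 1 of 3 probe sets was lower in null cells without GH by 0.60 on the log2 scale.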
